A study of Homo sapiens with 4 samples.

Results

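S100A13 and 9 other S100 genes of the 1q21 cluster, S100A1, S100A14, S100A16, S100A2, S100A3, S100A4, S100A6, S100A10 and S100A11, were followed across 4 expression arrays of the Hodgkin lymphoma cell line KM-H2. The 10 genes are among 19775 genes that the arrays name. They were chosen by a measured value, the higher S100A13 signal of the knockdown arrays, together with the chromosomal position of its relatives, so that their differences between knockdown and control are given as descriptions without a test. A pair of arrays came from KM-H2 cells treated with small interfering RNA against PTPN1, whose product is a tyrosine phosphatase that removes phosphate from JAK kinases, and another pair from KM-H2 cells with a non-silencing control (the controls). Within a group the arrays are technical replicates of 1 cell line, so an SD, SE or p-value here measures the spread between arrays and not between cultures. Values are log2 expression values made by the submitters with RMA, which corrects background, equalises the arrays and merges the short probes of a probe set into 1 value. The median of all values was 5.11. RMA compresses differences among dim probe sets, and a level of one probe set cannot be set against that of another.

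S100 proteins are small calcium-binding proteins with EF-hand motifs that work as dimers inside cells and, for some members, as secreted signals. Most of their genes lie side by side on the long arm of chromosome 1. S100A13 is known for helping to export FGF1 and interleukin-1 alpha, proteins that lack a classical signal for secretion. In lymphoid cells the family is less studied than in epithelia, nerve and muscle.

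S100A13, chosen for its higher signal, was the member with the largest difference, and the genes beside it did not share that size. Its brighter probe set stood 2.05 higher on the log2 scale in the knockdown arrays, and its dimmer one differed by -0.22. S100A16 stood 0.41 higher, and S100A14, which lies between S100A13 and S100A16, differed by -0.01. S100A1, on the other side of S100A13, differed by -0.11. The values of S100A14 lay below the median of all values and those of S100A1 close to it. At the far end of the cluster S100A10 and S100A11 were lower by 0.47 and 0.30 on the log2 scale.

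For S100A13 the controls read 7.23 and 7.30 and the knockdown arrays 9.46 and 9.17. Both knockdown arrays lay far above both non-silencing arrays, and the arrays of each group were close together. The group means were 7.27 ± 0.05 (SD, n = 2) and 9.31 ± 0.21 (SD, n = 2), a log2 difference of 2.05 (SE 0.15), or 4.14-fold. Within the arrays numbered 1 in their titles the difference was 2.23, and within those numbered 2 it was 1.87. It ranked 20 of 19775 genes by mean difference, 16 within number 1 and 43 within number 2. Genes at least 2-fold higher in knockdown within both numbers made up 0.263% of all genes, and S100A13 was the only listed S100 gene among them.

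A further probe set for S100A13, built on an expressed sequence tag, did not follow. It read 5.39 and 5.42 in the controls and 5.23 and 5.14 after knockdown. Here both knockdown arrays were lower, with a log2 difference of -0.22 (SE 0.13) that was -0.16 and -0.28 within the numbers. The probe sets of this gene thus differed in direction, and with their mean the S100A13 difference was 0.92. This probe set lay only slightly above the median of all values. Which transcripts each of them detects was not tested.

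**Figure D1:**
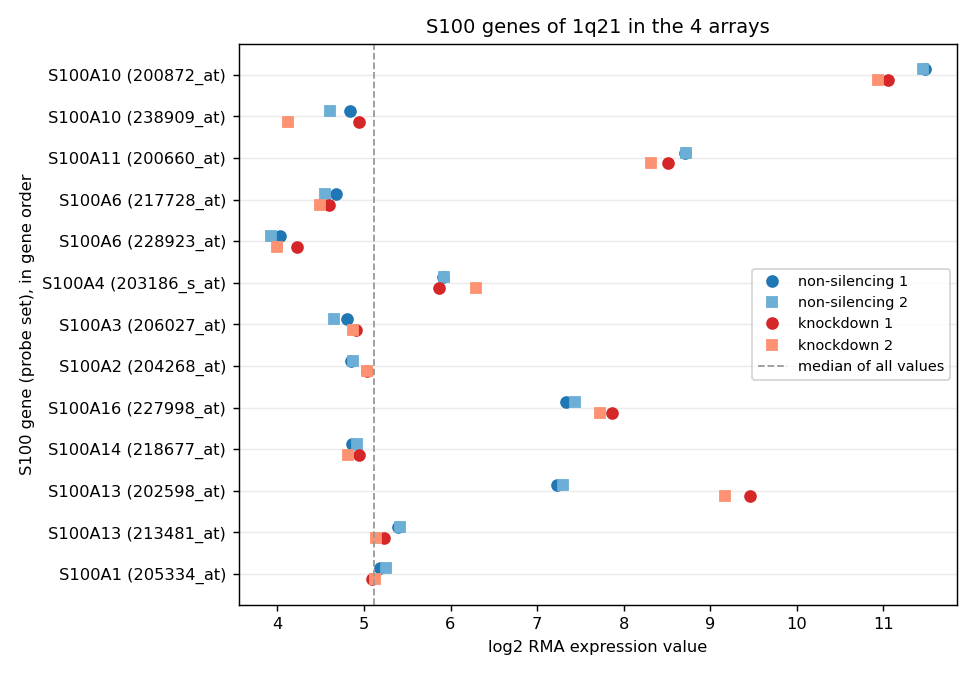
Log2 RMA value (horizontal axis) of each of the 13 probe sets of the listed S100 genes in each of the 4 arrays, 1 point per array, with the median of all values (5.11) as a dashed line. The brighter S100A13 probe set moves from 7.23 and 7.30 to 9.46 and 9.17, whereas 6 of the 13 probe sets lie below the median of every array.

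S100A13 has 3 annotated start sites in RefSeq, and the start of S100A1 lies between them on the opposite strand, so that these genes overlap. Windows of 250 bases before to 50 after a start are shown for S100A13, S100A14 and S100A16, the neighbouring genes with the contrast described above. They come from RefSeq (build GRCh38.p14), all lie on the minus strand and are written 5′ to 3′. Capitals mark a match to the TATA box TATAAA or to the STAT motifs TTCNNNGAA and TTCNNNNGAA, searched on both strands.
S100A13, start farthest upstream, chr1:153634312-153634611: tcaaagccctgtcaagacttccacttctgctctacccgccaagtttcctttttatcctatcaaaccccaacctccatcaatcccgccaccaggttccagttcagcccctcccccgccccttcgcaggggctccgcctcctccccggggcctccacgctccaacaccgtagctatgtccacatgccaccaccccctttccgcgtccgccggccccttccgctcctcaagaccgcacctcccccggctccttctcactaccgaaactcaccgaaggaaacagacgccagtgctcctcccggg
S100A13, middle start, chr1:153627456-153627755: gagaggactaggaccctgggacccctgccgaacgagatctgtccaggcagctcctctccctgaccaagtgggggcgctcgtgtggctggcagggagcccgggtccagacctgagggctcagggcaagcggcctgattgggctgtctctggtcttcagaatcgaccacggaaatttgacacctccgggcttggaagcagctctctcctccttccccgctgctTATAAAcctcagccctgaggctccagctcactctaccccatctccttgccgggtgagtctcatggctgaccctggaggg
S100A13, start farthest downstream, chr1:153627190-153627489: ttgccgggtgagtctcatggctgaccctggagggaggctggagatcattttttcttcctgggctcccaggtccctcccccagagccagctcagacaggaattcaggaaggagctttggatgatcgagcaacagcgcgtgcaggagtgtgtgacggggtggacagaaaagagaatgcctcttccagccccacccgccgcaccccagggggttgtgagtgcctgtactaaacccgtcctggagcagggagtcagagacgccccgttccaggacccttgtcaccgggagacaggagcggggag
S100A14, only listed start, chr1:153616276-153616575: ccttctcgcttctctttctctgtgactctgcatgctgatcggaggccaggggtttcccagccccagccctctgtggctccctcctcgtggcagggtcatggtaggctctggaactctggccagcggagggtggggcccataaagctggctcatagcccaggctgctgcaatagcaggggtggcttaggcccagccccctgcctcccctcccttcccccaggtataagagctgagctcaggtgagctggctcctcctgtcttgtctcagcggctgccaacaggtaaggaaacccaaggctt
S100A16, upstream start, chr1:153613088-153613387: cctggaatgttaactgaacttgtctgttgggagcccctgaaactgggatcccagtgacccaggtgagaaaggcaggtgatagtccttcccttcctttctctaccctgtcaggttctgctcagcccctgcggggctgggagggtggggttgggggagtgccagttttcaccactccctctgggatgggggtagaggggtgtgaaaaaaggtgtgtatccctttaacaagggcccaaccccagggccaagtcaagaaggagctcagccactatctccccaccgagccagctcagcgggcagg
S100A16, downstream start, chr1:153609306-153609605: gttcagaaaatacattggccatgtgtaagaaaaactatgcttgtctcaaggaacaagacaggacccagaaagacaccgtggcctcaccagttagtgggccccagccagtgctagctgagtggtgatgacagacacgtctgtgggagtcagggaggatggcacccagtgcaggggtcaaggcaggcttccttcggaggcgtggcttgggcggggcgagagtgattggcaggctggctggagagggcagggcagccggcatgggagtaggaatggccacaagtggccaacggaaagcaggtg

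The middle S100A13 window holds TATAAA, which begins 29 bases before the start. Among the 14 windows of the 10 genes this motif is otherwise found in that of S100A4, and 11.5% of all 35116 promoter windows hold it. Neither STAT motif is present in any window of S100A13, S100A14 or S100A16. TTCNNNGAA is held by the S100A3 window (TTCCAGGAA) and by 7.66% of all windows, and TTCNNNNGAA by the S100A10 window (TTCTACTGAA) and by 6.44% of all windows. CG dinucleotides numbered 19, 11 and 12 in the S100A13 windows as listed, 5 in that of S100A14, and 3 and 8 in those of S100A16, where the median window has 14. These matches describe letters only, and the arrays do not show which start is used.

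S100A16, a broadly expressed family member, lies just beyond S100A14 as seen from S100A13. Its probe set read 7.33 and 7.44 in the controls and 7.86 and 7.73 after knockdown. Both knockdown arrays were above both controls. The means were 7.38 ± 0.074 (SD, n = 2) and 7.79 ± 0.092 (SD, n = 2), a log2 difference of 0.41 (SE 0.13), or 1.33-fold, with 0.52 and 0.29 within the numbers. Of all genes, 3.94% had a larger difference in either direction. The S100A13 difference exceeded it by 1.64 on the log2 scale.

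S100A14, a gene typical of epithelia, sits between S100A16 and S100A13. It read 4.86 and 4.92 in the controls and 4.94 and 4.81 after knockdown, and the groups overlapped. All 4 values lay below the array medians, where a change of modest size is hard to see. The sign of its difference of -0.01 changed under 4 of 8 other settings.

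S100A1, known for calcium handling in heart and skeletal muscle, read 5.19 and 5.25 in the controls and 5.09 and 5.13 after knockdown. Its knockdown arrays were slightly lower, by 0.11 within each number, an amount smaller than the SE of 0.13. Although S100A1 overlaps S100A13 on the chromosome, its signal did not follow the bright S100A13 probe set. S100A1 stayed close to the median of all values in every array, where a change of modest size is hard to see.

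S100A2 and S100A3 come next on the S100A16 side. S100A2, a nuclear member studied in epithelial cells, read 4.85 and 4.87 in the controls and 5.04 and 5.04 after knockdown, a log2 difference of 0.18 (SE 0.12). S100A3, a protein of the hair cuticle, read 4.80 and 4.65 against 4.91 and 4.87, a difference of 0.17 (SE 0.13). In both genes the knockdown arrays lay just above the controls, at levels below the array medians.

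S100A4, which binds non-muscle myosin and is linked to cell motility, read 5.91 and 5.92 in the controls and 5.87 and 6.29 after knockdown. Its mean difference of 0.16 (SE 0.18) rested on knockdown array 2, since the difference was -0.04 within number 1 and 0.37 within number 2. Without knockdown array 2 it was -0.04. S100A6, calcyclin, read 4.68 and 4.55 against 4.59 and 4.49, and the groups overlapped (difference -0.07, SE 0.13). Its dimmer probe set ranged from 3.93 to 4.23 and differed by 0.13, also with overlap.

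S100A10 and S100A11 lie apart from the rest, beyond the genes of the epidermal differentiation complex. S100A10, the partner of annexin A2 that has lost calcium binding, read 11.48 and 11.46 in the controls and 11.06 and 10.94 after knockdown. Both knockdown arrays were lower, by 0.42 and 0.52 within the numbers. The log2 difference was -0.47 (SE 0.13), which left 72.2% of the control signal, and 2.78% of all genes had a larger difference in either direction. A dim S100A10 probe set read 4.84 and 4.61 against 4.94 and 4.12, with overlap, and the mean of both probe sets differed by -0.33. S100A11, a partner of annexin A1, read 8.71 and 8.72 against 8.51 and 8.32, a difference of -0.30 (SE 0.14) that was -0.20 and -0.40 within the numbers.

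Taking the brightest probe set of each gene, 4 of the 10 listed genes (S100A13, S100A16, S100A2 and S100A3) had both knockdown arrays above both controls. Over all genes this held for 12.4%. Another 3 (S100A10, S100A11 and S100A1) had both below, against 15% of all genes. The remaining 3, S100A14, S100A4 and S100A6, overlapped. Without knockdown array 1 the counts were 5 higher and 5 lower. Groups overlap less readily with fewer arrays, and the share of all genes was not worked out for that setting. The median difference of the 10 genes was 0.07 and that of all genes -0.01. Since S100A13 and its group were picked with this contrast in view, nothing is read from these shares. Without S100A13 the listed genes ranged from -0.47 to 0.41.

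**Figure D2:**
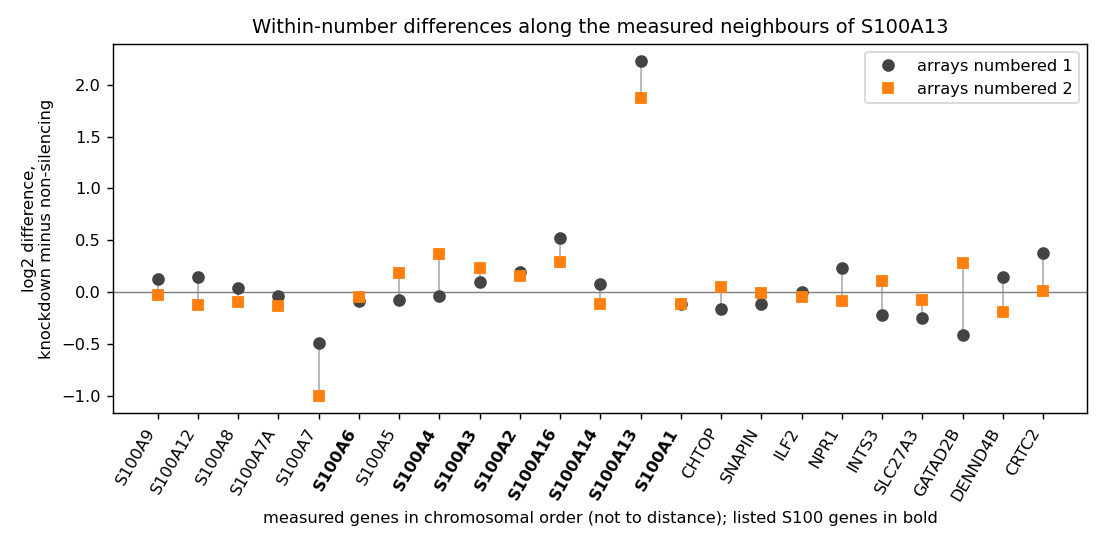
Log2 difference, knockdown minus non-silencing (vertical axis), for measured genes in chromosomal order around S100A13, with a circle for the arrays numbered 1 and a square for the arrays numbered 2. S100A13 stands at 2.23 and 1.87, S100A16 at 0.52 and 0.29, and S100A7 is the lowest at -0.49 and -1.0.

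The wider neighbourhood was compared next, using the 10 measured genes on either side of S100A13. Of these 20 genes, 7 are listed S100 genes and 13 are not. The 10 on the S100A14 side, all of them S100 genes, had a median difference of 0.02, and the 10 on the S100A1 side a median of -0.05. On that latter side CHTOP, which encodes a chromatin protein of mRNA export, differed by -0.05, SNAPIN, a gene of vesicle docking, by -0.06 and ILF2, a gene of an RNA-binding complex, by -0.02. CRTC2, a coactivator of CREB, differed most on that side, by 0.20 (SE 0.15), with 0.38 and 0.01 within the numbers. None of the 13 genes passed in limma (lowest adjusted p = 1), and 0 of the 13 had an unadjusted p under 0.05. In that fit, which had no term for the array number, 0% of the 54613 probe sets were called at an adjusted p under 0.05, and 1364 had an unadjusted p under 0.05. With the number as a replicate block 164 probe sets (0.3%) were called, and 0 of the 13 neighbours were among them (lowest limma adjusted p = 0.16). A p that misses the threshold does not show that the neighbours did not differ.

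Of the 10 other S100 genes that were measured, S100A5, S100A7, S100A7A, S100A8, S100A9 and S100A12 share the cluster, while S100B, S100P, S100G and S100Z lie elsewhere. None passed in limma (lowest adjusted p = 1), and 0 had an unadjusted p under 0.05. Except for S100A7 their differences ran from -0.09 (S100A7A) to 0.06 (S100A5). S100A8 and S100A9, the calprotectin genes of neutrophils and monocytes, read from 4.28 to 4.38 and from 4.36 to 4.54, below the array medians throughout. S100A7, psoriasin of inflamed skin, read 5.70 and 6.83 in the controls and 5.21 and 5.83 after knockdown, and the groups overlapped. Its difference of -0.74 had an SE of 0.41, and it was higher in number 2 in both groups.

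**Figure D3:**
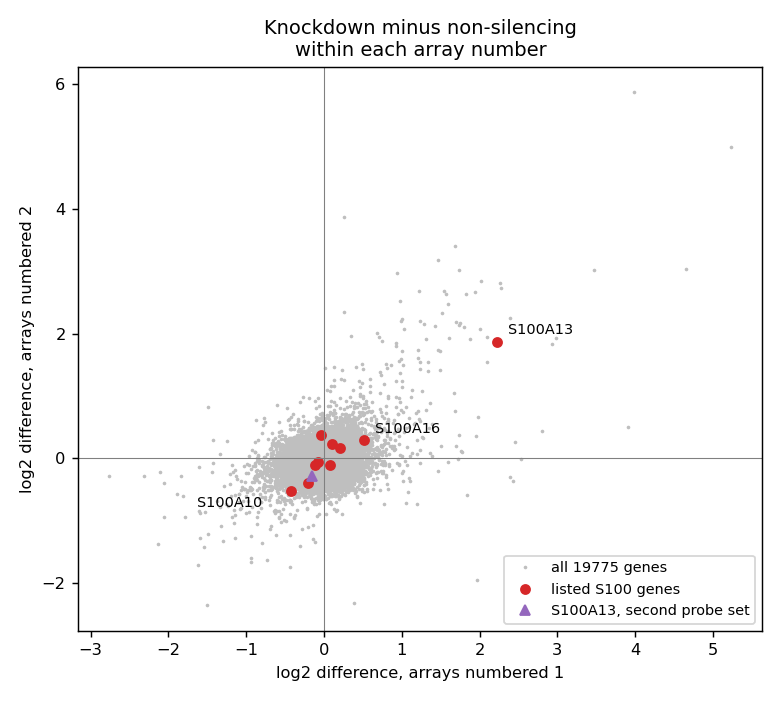
Log2 difference, knockdown minus non-silencing, within number 1 (horizontal axis) and within number 2 (vertical axis), for 19775 genes with 1 grey point each and the listed S100 genes in red. S100A13 lies at 2.23 and 1.87, its second probe set (triangle) at -0.16 and -0.28, and the other listed genes lie from -0.42 to 0.52 on the horizontal axis.

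The array number was a contrast on which the genes had not been chosen, and it could be tested. Arrays numbered 2 were compared with arrays numbered 1 in limma with a term for the group, and 8.09% of all probe sets were called at an adjusted p under 0.05. Of the 13 probe sets of the listed genes 0 were called. The lowest adjusted p among them, 0.0926, belonged to the dim S100A10 probe set, which was 0.52 lower on the log2 scale in the arrays numbered 2. For S100A13 the limma difference was -0.11 (SE 0.13, adjusted p = 0.693), made up of 0.07 in the non-silencing and -0.29 in the knockdown arrays. S100A16 differed by -0.01 (adjusted p = 0.969) and S100A4 by 0.21 (adjusted p = 0.429). Among the other S100 genes S100A7 was 0.88 higher in the arrays numbered 2 (limma adjusted p = 0.0159).

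Genes listed as partners or receptors of S100 proteins were looked at, without a check that each product binds one, and 19 were measured. None passed in the knockdown comparison (limma, lowest adjusted p = 1), and 2 of the 19 had an unadjusted p under 0.05, against 523 of all 19775 genes. With the replicate block 0 of the 19 passed (lowest limma adjusted p = 0.085). Among the partners 6 differences lay above 0 and 13 below with a median of -0.07, and among all genes 9522 lay above and 10253 below with a median of -0.01. FGF1, a cargo of S100A13, read 6.53 and 7.29 in the controls and 6.39 and 7.34 after knockdown. The groups overlapped, and FGF1 was higher in number 2 by 0.85 (limma adjusted p = 0.00943). IL1A, the other cargo, read 3.99 and 4.77 against 3.85 and 4.12. SYT1, a member of the FGF1 export complex, differed by -0.07. IL1A and SYT1 lay below the array medians in every array, where a change of modest size is hard to see.

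Of the annexins, ANXA2, which holds S100A10 at membranes, read 11.71 and 11.81 against 11.38 and 11.64 in knockdown, a difference of -0.25 (SE 0.15) without overlap. ANXA1, bound by S100A11, read 9.69 and 10.47 against 9.06 and 9.60. Its knockdown arrays were lower, by 0.63 and 0.87 within the numbers, but its arrays numbered 2 were also higher by 0.66 (limma adjusted p = 0.0218). AHNAK, a giant scaffold tied to S100A10 and annexin A2, differed by -0.25 with overlap.

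The partners with an unadjusted p under 0.05 were LIMCH1, an actin-associated gene, with a difference of -0.75 (SE 0.26), and RYR1, a calcium release channel modulated by S100A1, with -0.44 (SE 0.13). RYR1 read 4.78 and 4.81 against 4.39 and 4.34, below the array medians. RYR2, a related channel, read 5.97 and 6.04 against 4.99 and 5.80, a difference of -0.61 (SE 0.28). In all, 5 of the 19 partners (ANXA2, ANXA1, LIMCH1, RYR1 and RYR2) had both knockdown arrays below both controls, against 15% of all genes. ATP2A2, the calcium pump of the endoplasmic reticulum, was the 1 partner with both knockdown arrays higher, against 12.4% of all genes. It read 10.77 and 10.39 in the controls and 11.17 and 10.83 after knockdown, a difference of 0.42 (SE 0.20). The receptor genes AGER and TLR4 differed by 0.04 and 0.34, each with overlap.

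Genes with the pattern closest to S100A13 over the 4 arrays were sought by the distance between values centred on each gene's own mean. GIMAP6, a GTPase gene of lymphocytes, was nearest, at a distance of 0.18, and read 3.88 and 4.0 in the controls and 5.98 and 5.94 after knockdown. TTC7B, a subunit of a lipid kinase complex, followed at 0.29, TRIM6, a ubiquitin ligase gene, at 0.35, the T-box factor gene TBX5 at 0.41 and LGSN at 0.43. Their knockdown differences were 2.02, 2.32, 1.82, 1.96 and 1.95, and they were picked for resembling S100A13, so these values support nothing. Except for TBX5 their control values lay under that median (5.11), unlike S100A13. TBX5 has 4 probe sets, and the others differed by 0.81, 0.55 and 0.21. A further GIMAP6 probe set differed more, by 3.01, with 3.61 and 2.41 within the numbers.

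**Figure D4:**
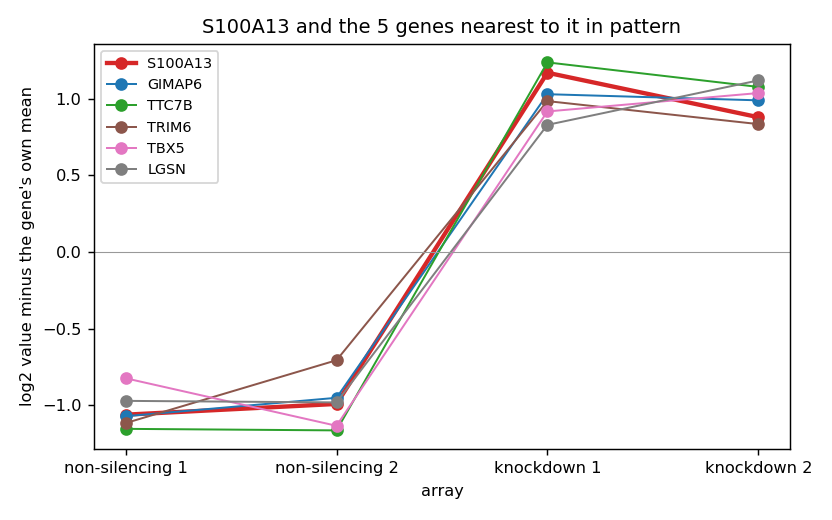
Log2 value minus the gene's own mean over the 4 arrays (vertical axis) in each array (horizontal axis) for S100A13 (thick red line) and the 5 genes nearest to it. All 6 lie below 0 in the non-silencing arrays and above 0 in the knockdown arrays.

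Some facts of the arrays bear on these values. PTPN1 itself read 8.16 and 8.40 in the controls and 7.0 and 7.36 after knockdown by its brightest probe set, a difference of -1.10. Its 3 dimmer probe sets, below the array medians, differed by 0.01, -0.03 and -0.07, each with overlap. Control probe sets for 18S ribosomal RNA moved with the group, at 11.88 and 11.67 against 12.42 and 12.23, and their part in the S100A13 difference was not tested. The 3′ minus 5′ actin difference, a sign of RNA integrity, moved with the number instead (1.31 and 1.33 in number 1, 0.97 in both arrays of number 2). All 10 Hodgkin cell markers, among them TNFRSF8 (CD30) and IRF4, lay above the array medians. Of their 10 differences 8 lay above 0, against 9522 of all 19775 genes. CCL17 (difference 0.97) and JUNB (0.21) had both knockdown arrays above both controls, and GATA3 (-0.44) had both below. Of the 5 T cell markers 3 lay above the array medians in every array, CD3D highest (9.76 to 10.36), whereas CD3E and CD2 lay below them. The T cell list averaged 6.54 and 6.48 in the non-silencing and 6.44 and 6.44 in the knockdown arrays, with 1 gene apart and higher (CD247) and 1 apart and lower (CD3G, 7.55 and 7.63 against 7.12 and 7.06). The 4 measured markers of the B cell programme averaged 5.89 and 5.86 against 5.63 and 5.69, and all 4 differences lay below 0, with 1 gene apart and lower (MS4A1). Of the 5 fibroblast markers only COL1A1 (8.63 to 10.01) lay above the medians in every array, and COL1A2, COL3A1 and LUM lay below them. The 7 epithelial markers averaged 4.74 and 4.78 in the non-silencing and 4.82 and 4.79 in the knockdown arrays, with 1 of the 7 apart and higher. KRT5, KRT8 and KRT18 lay above the medians in every array, and the other epithelial markers lay below them. The 5 fibroblast markers averaged 5.35 and 5.48 against 5.23 and 5.42, and the 6 monocyte and granulocyte markers 5.34 and 5.10 against 5.32 and 5.15. Each list had 1 gene apart and higher and 1 apart and lower. CD14 (6.21 to 7.63) and CSF1R (6.88 to 7.08) lay above the medians in every array, and LYZ, FCN1, MPO and ELANE below them. CD14 moved with the array number (number 2 minus number 1, -1.10, limma adjusted p = 0.00476). In the same limma fit the Hodgkin cell markers TNFRSF8 (-0.82, adjusted p = 0.0131), LMNA (-0.62, adjusted p = 0.0324) and IRF4 (-0.49, adjusted p = 0.0438) were lower in number 2. COL1A1 was higher in number 2 (0.90, limma adjusted p = 0.0143). The 3 endothelial markers averaged 5.02 and 5.01 against 5.04 and 4.77, with 1 gene apart in each direction. Over all genes 12.4% were apart and higher and 15% apart and lower. The part of these lists in the S100A13 difference was not tested. With 2 arrays a group, an exact permutation test of a single value cannot give a p below 0.333.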

How the data were processed

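Total RNA of 4 samples was hybridised to Affymetrix arrays after 2 cycles of amplification, per the labels' protocols. The deposited log2 values are RMA values of the authors according to the submitters' processing notes, and the RMA version is not given in the sources used here. They were used without further normalization, with arrays grouped and numbered by their titles. Symbols came from the platform's annotation, looked up by gene identifier in RefSeq (GRCh38.p14), which also gave the gene order. Of 54675 probe sets, 62 are controls, 41091 others have 1 symbol and 1801 several. Of several probe sets of a gene the brightest over the 4 arrays stood for it, which gave 19775 genes. All 10 listed genes were found, with 13 probe sets, and no filter on low values was applied. The 54613 non-control probe sets were fitted in limma 3.58.1 (R 4.3.3) with lmFit and eBayes, two-sided, with Benjamini-Hochberg adjustment over all of them and a threshold of 0.05. The knockdown fit had no covariate and the array number fit had group as a covariate. The fit was tested on simulated data.

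Named genes were all listed S100 genes, other S100 genes, listed partners, measured neighbours and the 5 genes nearest to S100A13 in pattern. Listed cell type markers, PTPN1 and some measured genes between the listed S100 genes were named as well. Members and lists were chosen with earlier results of these data known. Genes outside the table are not analysed here. Alternatives were quantile normalization, median centring, a replicate block, other choices of probe set, a filter on dim probe sets, another variance model, no group term and leaving out each array. Promoter windows are RefSeq's.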

Additional observations from a re-analysis of the deposited data

How the results depend on the processing

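S100A13 ranged from 1.90 to 2.19 on the log2 scale without 1 array and was 2.03 after quantile normalization, 2.07 after centring and 0.92 with the mean of its probe sets. S100A16 ranged from 0.34 to 0.47 and S100A10 from -0.53 to -0.41 without 1 array. The differences of S100A6, S100A4 and S100A14 changed sign under 1, 1 and 4 of the 8 settings tried, and those of the other listed genes under none of the 8. Among these settings the replicate block could change no difference in this balanced design. The mean of probe sets could change only genes with several probe sets. The number of listed genes with every remaining knockdown array above every remaining control was from 4 to 5 without 1 array. The number with every one below, 3 in all arrays, was from 3 to 5, a count added after the data were seen. Fewer arrays overlap less readily, and no share over all genes was worked out for these settings. Nothing is therefore read from these counts. In the knockdown comparison from 0 to 1 probe sets were called without 1 array, and 164 with the replicate block (115 higher, 49 lower). None of the other S100 genes (lowest limma adjusted p = 0.16), partners or neighbours passed with that block. The labels do not say whether a number marks a shared batch. Over probe sets, same-numbered deviations from the group means correlated at 0.593, and with a block the S100A13 difference was 2.05, as a balanced design gives. For the array number, 4417 probe sets were called, against 1694 without the group term, 1948 with 1 probe set per gene (fewer tested) and 7933 with a variance trend and robust estimation. Of the 13 probe sets 6 lay below the median of every array, where differences are compressed.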

Other observations

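Between S100A11 and S100A9 lie the genes of the epidermal differentiation complex, some of which build the cornified envelope of skin. Between the listed S100 genes, 29 measured genes are in neither of the S100 lists used here. They read from 2.22 to 6.45 in the 4 arrays, and 5 of them lay above the array medians in every array. Their median difference was -0.06, from -0.34 (LINC00302) to 0.36 (FLG2), with 4 of the 29 apart and higher in knockdown and 7 apart and lower, against 12.4% and 15% of all genes. None passed in limma (lowest adjusted p = 1), 0 had an unadjusted p under 0.05, and 0 passed with the replicate block (lowest adjusted p = 0.472). Involucrin (IVL) differed by 0.11, filaggrin (FLG) by 0.04 and loricrin (LORICRIN) by -0.32, and the last of these was 0.07 and -0.70 within the numbers. These genes were named after their values were seen.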
